A study of Homo sapiens with 8 samples.

Results

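Transcripts of the EGFR family were followed in OVISE cells, a cell line from a human ovarian clear cell carcinoma. The set was chosen by name with earlier results of these data known, so its counts beside those of all loci only describe it. It holds 10 genes: the receptors EGFR, ERBB2 and ERBB3, the ligands AREG, EREG, HBEGF, TGFA, BTC and EPGN, and the cytoplasmic inhibitor ERRFI1. They lie on 11 loci, because AREG is listed 2 times, out of 26589 genes on 27757 loci in the table. The study crossed SYK genotype with growth factor treatment and sequenced 2 paired-end RNA libraries in each of 4 groups. The SYK-WT and SYK-KO groups had no treatment, and the SYK-WT EGF and SYK-KO EGF groups received 50 ng/ml EGF, with RNA taken 24 h later. All cells were OVISE. In SYK-KO cells, SYK, a cytoplasmic tyrosine kinase, had been disrupted in exon 2 with a Cas9 nickase and a pair of guides, after which cells were selected in puromycin and grown from single cells. The labels give neither the number of SYK-KO clones sequenced nor the origin of the SYK-WT cells (parental or clonal), so clone and genotype cannot be told apart. They also name no separate cultures for the libraries of a group, so each p-value measures the spread between these libraries only and that spread may be technical.

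The EGFR family is a set of receptor tyrosine kinases at the cell surface. Its ligands are made as membrane-anchored precursors and are cut loose by metalloproteases of the ADAM family. A bound ligand makes EGFR pair with itself or with ERBB2 or ERBB3. ERBB2 binds no ligand of its own and ERBB3 has little kinase activity, so both depend on a partner. Signals run through adaptors to RAS and the ERK kinases and through PI3 kinase, and several ligands and inhibitors are themselves transcribed in response, which forms positive and negative feedback loops. ERRFI1, also known as MIG6, binds the EGFR kinase domain and blocks it.

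Levels are FPKM, that is, fragments per kilobase of transcript, scaled to the mapped fragments of the library, so they are per length and can be compared between genes within a library. The estimated depth was 22800000 to 26900000 fragments a library, provided that the authors' scaling used the fragments of that library alone. A change is a log2 fold change of FPKM + 1, tested with limma over all 12112 loci that reached 1 FPKM in at least 2 libraries. The adjusted p is the Benjamini-Hochberg value over those loci, two-sided, and 0.05 was the threshold. Of the 11 loci, 9 were tested, which hold 8 genes, and EREG and EPGN stayed under the filter. HBEGF was under 1 FPKM in both SYK-WT libraries and passed the filter through the other groups.

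The label of the cells was checked against markers. Epithelial genes were high in every library, with EPCAM at 465 to 564 FPKM and KRT7 at 429 to 580 FPKM. Of the genes used to recognise clear cell carcinoma, PAX8 was at 148 to 234 FPKM and ANXA4 at 183 to 434 FPKM, while NAPSA reached at most 5.37 FPKM. The summed level of 4 haematopoietic markers lay between 0.236 and 0.548 FPKM, that of 4 fibroblast markers between 0.0986 and 0.375 FPKM, and that of 3 endothelial markers between 0.0659 and 0.161 FPKM. COL3A1 was listed at 0 in all 8 libraries. The mesothelial markers moved with the groups, but not all in the same direction. Their sum was 6.14 and 7.90 FPKM in SYK-WT, 0.931 and 0.644 in SYK-KO, 10.8 and 10.1 in SYK-WT EGF, and 4.32 and 3.39 in SYK-KO EGF. MSLN was 5.68 to 8.63 FPKM in the 4 SYK-WT and SYK-WT EGF libraries and at most 0.262 FPKM in the 4 others, and WT1 was at most 0.438 FPKM throughout. CALB2 went the other way by genotype with EGF, at 1.98 and 1.81 FPKM in SYK-WT EGF and 3.62 and 2.96 in SYK-KO EGF. It was at most 0.586 FPKM in the untreated libraries, so the sum mixes opposite changes. The summed epithelial markers were 7030 and 7947 FPKM in SYK-WT, 9968 and 9110 in SYK-KO, 13011 and 13235 in SYK-WT EGF, and 14699 and 13359 in SYK-KO EGF. Most of this sum came from KRT8, at 2396 to 5889 FPKM over the 8 libraries, and KRT18, at 1920 to 5188 FPKM. CDH1 was at 30.7 to 90.8 FPKM, and EPCAM and KRT7 had the narrow ranges given above. The part of these shifts in the results below was not tested, and in bulk RNA fewer cells of a kind and less RNA per cell cannot be told apart.

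SYK itself was at 4.91 and 5.30 FPKM in SYK-WT, 3.11 and 3.43 in SYK-KO, 3.88 and 3.62 in SYK-WT EGF, and 2.80 and 3.16 in SYK-KO EGF. Without EGF the difference, SYK-KO minus SYK-WT, was -0.52 ± 0.0861 (SE) (limma adjusted p = 0.00289). Transcripts of a gene with a small edit can persist, and the labels name an immunoblot as the check of the knockout, so these levels do not check it. The SYK-WT pair stood apart from the other pairs: the median difference between its libraries was 0.150 (log2), while the other pairs had 0.0669 to 0.0828. Several values that rest on that pair are therefore also given with a library left out.

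Promoter sequence was available from RefSeq (GRCh38.p14) for 9 of the 10 genes, in 11 windows of 250 bases before to 50 after a transcription start. The 100 bases before the start are shown for the 3 genes that rose most with EGF, AREG, HBEGF and ERRFI1, and for EREG, whose level followed that of AREG. They read 5′ to 3′ on the gene's own strand, and capitals mark matches on either strand to the TATA box, searched as TATAAA, and to the core of a cAMP response element, searched as TGACGTC.
AREG, chr4:74445036-74445135, plus strand: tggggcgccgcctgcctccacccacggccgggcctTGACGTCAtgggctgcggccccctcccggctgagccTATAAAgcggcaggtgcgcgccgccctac
EREG, chr4:74365045-74365144, plus strand: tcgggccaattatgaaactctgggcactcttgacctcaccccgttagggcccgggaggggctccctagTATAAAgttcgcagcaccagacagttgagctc
HBEGF, chr5:140346604-140346703, minus strand: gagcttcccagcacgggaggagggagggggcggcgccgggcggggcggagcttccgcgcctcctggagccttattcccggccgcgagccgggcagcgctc
ERRFI1, chr1:8026310-8026409, minus strand: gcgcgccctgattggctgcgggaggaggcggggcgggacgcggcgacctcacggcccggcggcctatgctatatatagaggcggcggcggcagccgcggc
AREG, EREG and EPGN, neighbours on chromosome 4, each held TATAAA close before the start, with its first base at -29, -32 and -29. A TATAAA was found anywhere in the window, on either strand, in 11.5% of 35116 promoter windows of this length. The share with a TATAAA at these positions was not taken. TATAAA and TGACGTC were added to the search after the windows were seen, so the shares given for them are a description. AREG also held TGACGTC, at -65 and on the opposite strand at -64, so that both matches overlap, and 3.45% of windows held it. TGANTCA, the AP-1 motif, was found in 7.71% of windows and CCGGAAG, an ETS motif, in 10.3%. Neither was in the windows of AREG, EREG, HBEGF or ERRFI1, which says only that these letters are not there. ERBB2 held AP-1 at -222 and ETS at -26 and -14, and the second EGFR start held AP-1 at -232 and -136 and TATAAA at -146 and -36. No motif of the 4, in the letters searched, was found for HBEGF, ERRFI1, BTC or TGFA. Other spellings of a motif were not searched, and the ERRFI1 sequence above holds tatatata.

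Across the 8 libraries the ligand AREG and the ligand TGFA were the most abundant of the set. Ranked by mean FPKM among the 12112 loci, the AREG rows stood at 388 and 439, TGFA at 1174, EGFR at 1652, ERBB2 at 1740, ERRFI1 at 1826, ERBB3 at 3271, BTC at 6977 and HBEGF at 9064. EGFR and ERBB2, next to each other in this order, changed places between groups. EREG reached at most 0.427 FPKM and EPGN at most 0.0164 FPKM.

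**Figure D1:**
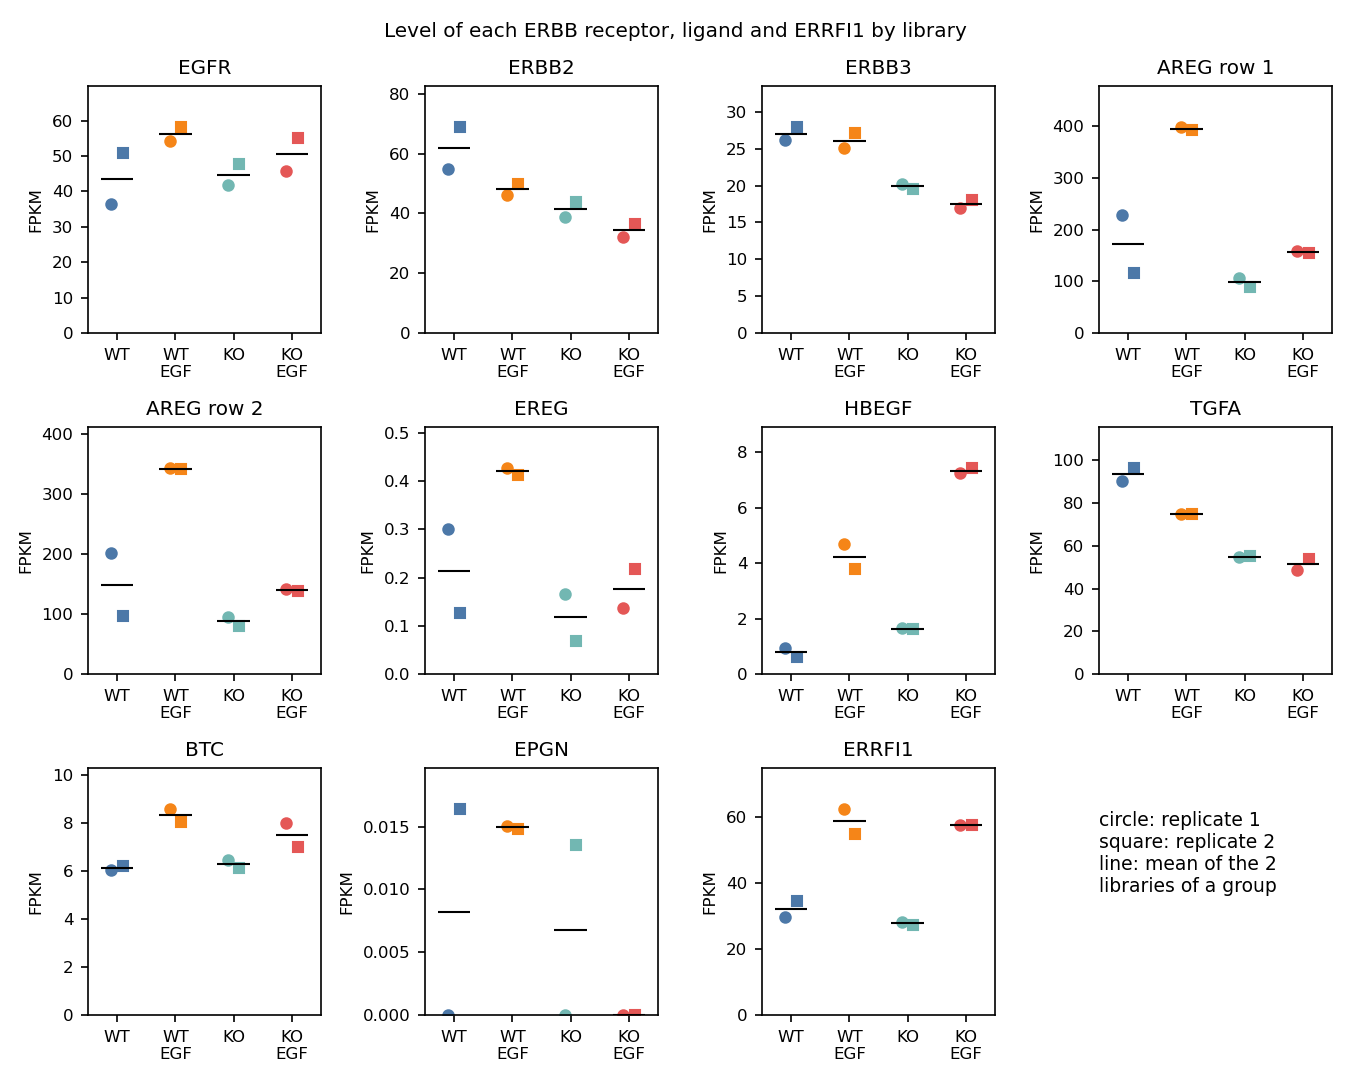
FPKM of each receptor, ligand and ERRFI1 in every library, with untreated and EGF groups side by side within a genotype; circles are replicate 1, squares replicate 2 and lines group means. AREG is highest in SYK-WT EGF, ERRFI1 is high in both EGF groups, HBEGF is highest in SYK-KO EGF, and TGFA, ERBB2 and ERBB3 are lowest in SYK-KO EGF.

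Of the receptors, ERBB2 and ERBB3 were lower in SYK-KO than in SYK-WT cells, with and without EGF. In the fit by group alone, EGFR did not pass in any comparison. EGFR (chr7:55086725-55275031, hg19) was at 36.4 and 50.7 FPKM in SYK-WT, 41.8 and 47.6 in SYK-KO, 54.3 and 58.1 in SYK-WT EGF, and 45.9 and 55.2 in SYK-KO EGF. Both SYK-WT EGF libraries lay above both SYK-WT libraries, and in all other pairs of groups compared the values overlapped. Its change with EGF was 0.38 ± 0.155 (SE, 95% interval 0.02 to 0.74) in SYK-WT cells and 0.17 ± 0.155 (-0.19 to 0.53) in the knockout (limma adjusted p = 0.108 and 0.539). With a replicate block in the fit the first of these passed (limma adjusted p = 0.0231) and the second did not (0.263). Without SYK-WT replicate 2 the first of these was 0.61 and passed (limma adjusted p = 0.00723), and without SYK-WT replicate 1 it was 0.15. SYK-KO differed from SYK-WT by 0.05 (-0.31 to 0.41) without EGF and by -0.16 (-0.51 to 0.20) with EGF, so changes up to these bounds could not be seen. The first of these was -0.18 when SYK-WT replicate 1 was left out and 0.29 when replicate 2 was. The locus overlaps the antisense gene EGFR-AS1, listed at 0.527 to 0.975 FPKM, and the strand of the reads is not given.

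ERBB2 (chr17:37844337-37886816) encodes the receptor that pairs with the ligand-bound members. It was at 54.9 and 68.9 FPKM in SYK-WT, 39.0 and 43.8 in SYK-KO, 46.3 and 49.9 in SYK-WT EGF, and 32.1 and 36.6 in SYK-KO EGF. The 4 groups did not overlap, with SYK-WT highest and SYK-KO EGF lowest. SYK-KO was lower, at -0.56 ± 0.119 (SE) without EGF and -0.48 ± 0.119 with EGF (limma adjusted p = 0.00795 and 0.0142). The first call was lost without SYK-KO replicate 1 (limma adjusted p = 0.0605), and the second without SYK-WT EGF replicate 2 (0.0885) or SYK-KO EGF replicate 1 (0.0946). EGF left ERBB2 at -0.35 ± 0.119 in SYK-WT and -0.26 ± 0.119 in SYK-KO cells, which did not pass (limma adjusted p = 0.065 and 0.199). Both passed with a replicate block in the fit (limma adjusted p = 0.0112 and 0.0471). When SYK-WT replicate 1 was left out the wild-type response was -0.51 and passed (limma adjusted p = 0.00493), and when replicate 2 was left out it was -0.19 (0.205). The knockout response passed with only its own groups in the fit (limma adjusted p = 0.0425) and when either SYK-WT library was left out (0.0484 and 0.048). The locus is shared with MIEN1, listed separately at 37.2 to 55.0 FPKM.

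ERBB3 (chr12:56473809-56497291), the receptor with the weak kinase, was at 26.2 and 27.9 FPKM in SYK-WT, 20.2 and 19.5 in SYK-KO, 25.1 and 27.1 in SYK-WT EGF, and 16.9 and 18.0 in SYK-KO EGF. All SYK-KO and SYK-KO EGF libraries lay below all SYK-WT and SYK-WT EGF libraries. The difference was -0.43 ± 0.0711 (SE) without EGF and -0.55 ± 0.0711 with EGF (limma adjusted p = 0.0029 and 9.01e-04), and both calls held in all 15 alternatives tried. EGF gave -0.05 in SYK-WT cells, where the pairs overlapped, and -0.18 where SYK was knocked out (limma adjusted p = 0.619 and 0.154).

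Within a library, the ratio of EGFR to ERBB2 was 0.664 and 0.736 in SYK-WT, 1.07 and 1.09 in SYK-KO, 1.17 and 1.17 in SYK-WT EGF, and 1.43 and 1.51 in SYK-KO EGF. ERBB2 transcripts thus outnumbered EGFR per length in untreated SYK-WT cells and in none of the other groups. These ratios were chosen after the values were seen and are a description without a test. Ratios of EGFR to ERBB3 ran from 1.39 in a SYK-WT library to 3.06 in a SYK-KO EGF library.

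**Figure D2:**
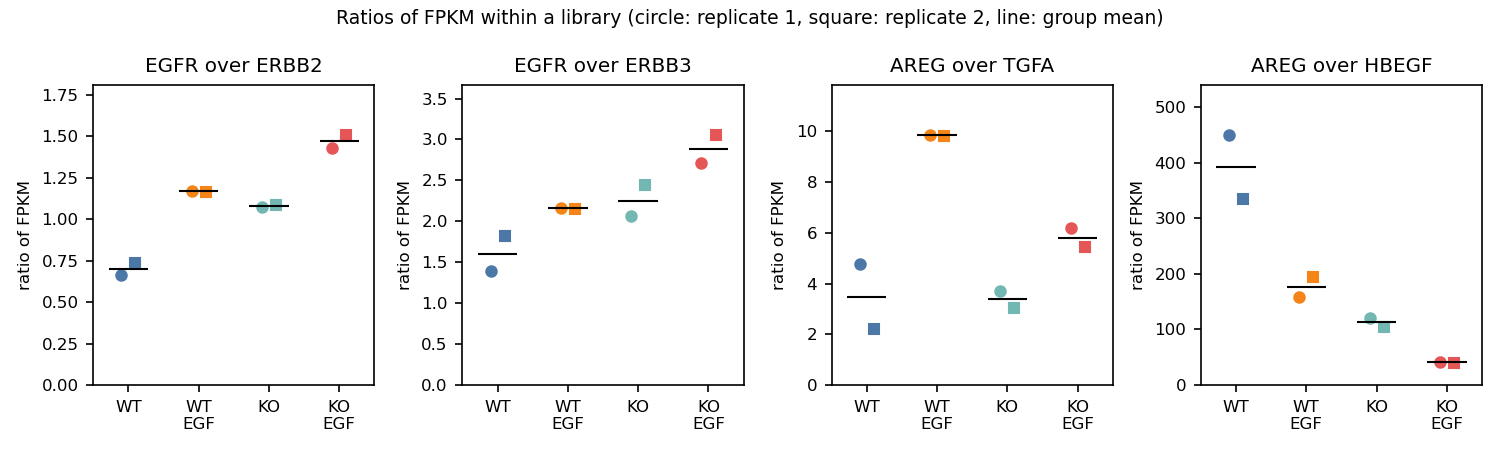
Ratios of FPKM within each library, by group; circles are replicate 1, squares replicate 2 and lines group means, on axes that start at 0. The ratio of EGFR to ERBB2 runs from 0.664 and 0.736 in SYK-WT to 1.43 and 1.51 in SYK-KO EGF. The ratio of AREG, both rows summed, to HBEGF falls from 450.3 and 335 to 41.6 and 39.4 over the same groups. HBEGF was under 1 FPKM in SYK-WT, and the absolute level of AREG is uncertain.

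Among ligands, HBEGF, AREG and BTC rose with EGF in SYK-WT cells and TGFA fell, and HBEGF alone of the ligands passed in the knockout. HBEGF (chr5:139712428-139726188) encodes a heparin-binding ligand of EGFR and ERBB4. Its levels were 0.955 and 0.632 FPKM in SYK-WT, 1.67 and 1.61 in SYK-KO, 4.69 and 3.78 in SYK-WT EGF, and 7.24 and 7.43 in SYK-KO EGF. No groups overlapped, and the order was SYK-WT, SYK-KO, SYK-WT EGF, SYK-KO EGF. Its rise with EGF was 5.33-fold in mean FPKM in SYK-WT and 4.47-fold in SYK-KO cells, or 1.54 ± 0.116 (SE) and 1.66 ± 0.116 on the log2 scale (limma adjusted p = 1.92e-04 and 3.32e-04). Both calls held in all 15 alternatives.

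HBEGF was also higher in SYK-KO than in SYK-WT cells, 2.07-fold in mean FPKM without EGF and 1.73-fold with EGF. On the log2 scale these differences were 0.56 ± 0.116 (SE) and 0.68 ± 0.116 (limma adjusted p = 0.00696 and 0.00296), and both held in every alternative. A pseudocount of 0.1 instead of 1 moved the first to 0.99, since log2(FPKM + 1) shrinks differences between low values. HBEGF alone of the 9 loci was higher in SYK-KO at the threshold.

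AREG encodes amphiregulin, a ligand of EGFR. The hg19 table lists it at near-identical copies, row 1 at chr4:75310815-75320726 and row 2 at chr4:75480591-75490485, and the second row was 0.833 to 0.900 of the first in every library. Reads of such copies can be split or counted at both, so the absolute level of AREG is uncertain and the rows are not independent. Row 1 was at 228 and 116 FPKM in SYK-WT, 107 and 88.8 in SYK-KO, 398 and 392 in SYK-WT EGF, and 159 and 155 in SYK-KO EGF. The SYK-WT EGF libraries were above all others, the SYK-KO libraries were below all others, and SYK-WT replicate 1 lay above both SYK-KO EGF libraries while SYK-WT replicate 2 lay below them.

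In wild-type cells AREG row 1 rose with EGF by 1.27 ± 0.26 (SE), 2.30-fold in mean FPKM (limma adjusted p = 0.0109), and row 2 by 1.29 ± 0.28 (0.0137). The size rested on the SYK-WT pair: row 1 gave 1.76 without its replicate 1 and 0.79 without its replicate 2, with the same direction in both. The call was lost without SYK-WT EGF replicate 1 (limma adjusted p = 0.0651) or replicate 2 (0.0614). In SYK-KO cells the change of row 1 was 0.68 ± 0.26 (95% interval 0.08 to 1.28), 1.60-fold in mean FPKM, and did not pass (limma adjusted p = 0.137). With the spread taken from the SYK-KO and SYK-KO EGF libraries alone the same change passed (limma adjusted p = 7.39e-04), as it did with library quality weights (0.0081) and without SYK-WT replicate 1 (9.76e-04) or replicate 2 (9.13e-04).

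Between genotypes, AREG row 1 was lower in SYK-KO EGF than in SYK-WT EGF, with a difference of -1.33 ± 0.26 (SE) and 0.397 of the mean FPKM (limma adjusted p = 0.00535), and row 2 differed by -1.29 ± 0.28 (0.00824). Both calls held in every alternative. Without EGF the difference of row 1 was -0.73 ± 0.26 and of row 2 -0.67 ± 0.28, which did not pass (limma adjusted p = 0.0552 and 0.0907). For row 1 it was -1.22 without SYK-WT replicate 2 (limma adjusted p = 7.28e-05) and -0.25 without SYK-WT replicate 1 (0.0779). It also passed with library quality weights (0.0372).

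TGFA (chr2:70674412-70781147) encodes transforming growth factor alpha, another ligand of EGFR. It was at 90.5 and 96.4 FPKM in SYK-WT, 54.8 and 55.2 in SYK-KO, 75.1 and 74.9 in SYK-WT EGF, and 48.6 and 54.0 in SYK-KO EGF. No groups overlapped, and untreated SYK-WT cells held the most. SYK-KO was lower, at -0.75 ± 0.0692 (SE) without EGF and -0.54 ± 0.0692 with EGF (limma adjusted p = 2.10e-04 and 8.76e-04), and both calls held in all 15 alternatives.

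With EGF, TGFA fell by 0.31 ± 0.0692 (SE) in SYK-WT cells (limma adjusted p = 0.0148), opposite in direction to HBEGF, AREG and BTC. That call was lost without SYK-WT EGF replicate 1 (limma adjusted p = 0.085) or replicate 2 (0.0867) and with the fit limited to the SYK-WT and SYK-WT EGF libraries (0.0545). In SYK-KO cells the change was -0.10 ± 0.0692 (95% interval -0.26 to 0.06; limma adjusted p = 0.407).

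BTC (chr4:75669970-75719896) encodes betacellulin, a ligand of EGFR and ERBB4. It was at 6.04 and 6.21 FPKM in SYK-WT, 6.47 and 6.14 in SYK-KO, 8.59 and 8.07 in SYK-WT EGF, and 8.00 and 7.01 in SYK-KO EGF. Within each genotype both EGF libraries lay above both untreated ones. BTC rose with EGF by 0.39 ± 0.0808 (SE) in SYK-WT cells (limma adjusted p = 0.0116), a call that was lost without SYK-WT EGF replicate 1 (0.0878) or replicate 2 (0.051). It was at 0.22 ± 0.0808 in SYK-KO cells (limma adjusted p = 0.129), and the genotypes differed by 0.04 without EGF and -0.13 with EGF, neither of which passed.

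EREG (chr4:75230860-75254477), which encodes epiregulin, was at 0.301 and 0.127 FPKM in SYK-WT, 0.165 and 0.0694 in SYK-KO, 0.427 and 0.413 in SYK-WT EGF, and 0.136 and 0.217 in SYK-KO EGF. The SYK-WT EGF libraries were above all others. Over the 8 libraries its log2(FPKM + 1) followed that of AREG row 1 with a Pearson correlation of 0.965, given as a description of libraries that share groups and depth. When no filter was applied, the difference between SYK-KO EGF and SYK-WT EGF was -0.27 ± 0.0781 (limma adjusted p = 0.0495), and with a pseudocount of 0.1 as well its adjusted p was 0.0944. EPGN (chr4:75174187-75182520), which encodes epigen, was at 0 in 4 libraries and at most 0.0164 FPKM in the others.

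Set against each other within a library, 7 EGFR ligands including EGF itself summed to 528 and 316 FPKM in SYK-WT, 266 and 232 in SYK-KO, 831 and 822 in SYK-WT EGF, and 366 and 362 in SYK-KO EGF. AREG, both rows summed, made up 74.2% ± 10.1 (SD, n = 2) of the sum in SYK-WT, 74.3% ± 2.46 in SYK-KO, 89.3% ± 0.0567 in SYK-WT EGF and 81.6% ± 0.986 in SYK-KO EGF. The TGFA share was 23.8% ± 9.46, 22.2% ± 2.26, 9.08% ± 0.05 and 14.1% ± 1.15 in the same order. HBEGF rose from 0.19% of the sum in SYK-WT to 2.02% in SYK-KO EGF, so that the ligand with the largest fold change stayed a small part of the ligand transcripts. With the higher AREG row alone, the AREG share was 61.3%, 60.4%, 81.7% and 70.1%.

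**Figure D3:**
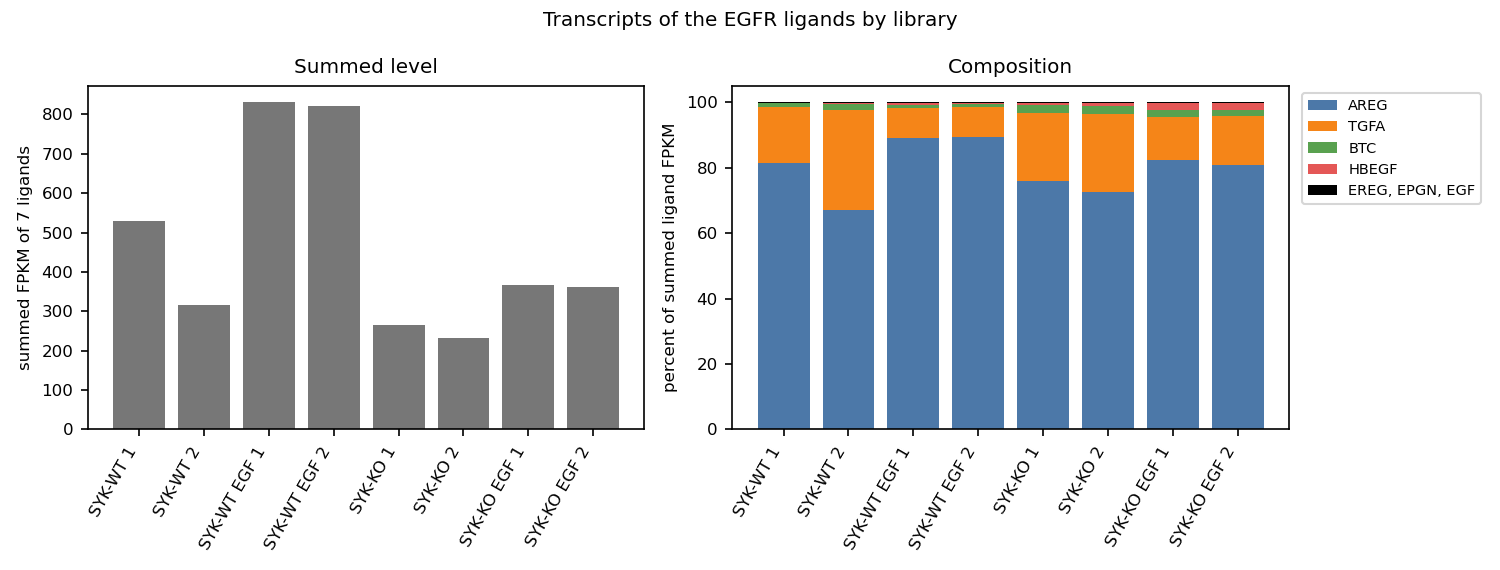
Left, the summed FPKM of 7 EGFR ligands in each library; right, the percent of that sum from each ligand, with both AREG rows summed. The SYK-WT EGF libraries hold the highest sums, 831 and 822 FPKM, and the highest AREG shares, and the SYK-KO libraries the lowest sums, 266 and 232 FPKM.

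ERRFI1 (chr1:8071779-8086393), the inhibitor of the EGFR kinase, was at 29.9 and 34.5 FPKM in SYK-WT, 28.2 and 27.4 in SYK-KO, 62.5 and 55.0 in SYK-WT EGF, and 57.8 and 57.5 in SYK-KO EGF. EGF-treated libraries lay above untreated ones in both genotypes, and the SYK-KO EGF pair lay within the range of the SYK-WT EGF pair. The rise was 1.82-fold in mean FPKM in SYK-WT and 2.07-fold in SYK-KO cells, or 0.85 ± 0.088 (SE) and 1.03 ± 0.088 on the log2 scale (limma adjusted p = 6.80e-04 and 6.21e-04). Both calls held in all 15 alternatives. The genotypes differed by -0.20 ± 0.088 without EGF (95% interval -0.41 to 0.00) and by -0.02 ± 0.088 with EGF (-0.23 to 0.18; limma adjusted p = 0.101 and 0.849). Without SYK-WT replicate 1 the first of these was -0.30 and passed (limma adjusted p = 0.0169), and with replicate 2 left out instead it was -0.10 (0.323).

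Counted over the 9 tested loci, EGF in SYK-WT cells raised 5 (both AREG rows, HBEGF, BTC and ERRFI1) and lowered 1 (TGFA), in a comparison where 26.7% of all tested loci were called (14.7% higher, 12.1% lower). The median change was 0.39 for these loci against 0.01 for all. When either SYK-WT EGF library was left out, 2 of the 9 were called, HBEGF and ERRFI1. EGF in SYK-KO cells raised 2 (HBEGF and ERRFI1) and lowered 0, with 11.8% of all loci called (6.67% higher, 5.13% lower). The median was 0.22 against 0.00. With only the SYK-KO and SYK-KO EGF libraries in the fit 5 of the 9 were called, both AREG rows among them. That fit also called more of all loci, 2980 against 1429.

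SYK-KO against SYK-WT without EGF gave 1 locus higher (HBEGF) and 3 lower (ERBB2, ERBB3 and TGFA) of 9. That share is close to the background, since 40.5% of all tested loci were called (20.3% higher, 20.2% lower). With EGF it gave 1 higher (HBEGF) and 5 lower (ERBB2, ERBB3, TGFA and both AREG rows), where 43.6% of all loci were called, 21.1% higher and 22.5% lower. The medians were -0.43 and -0.48, against -0.01 and -0.02 over all loci. The comparisons share groups: both EGF responses and both genotype differences are built from the same 8 libraries.

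**Figure D4:**
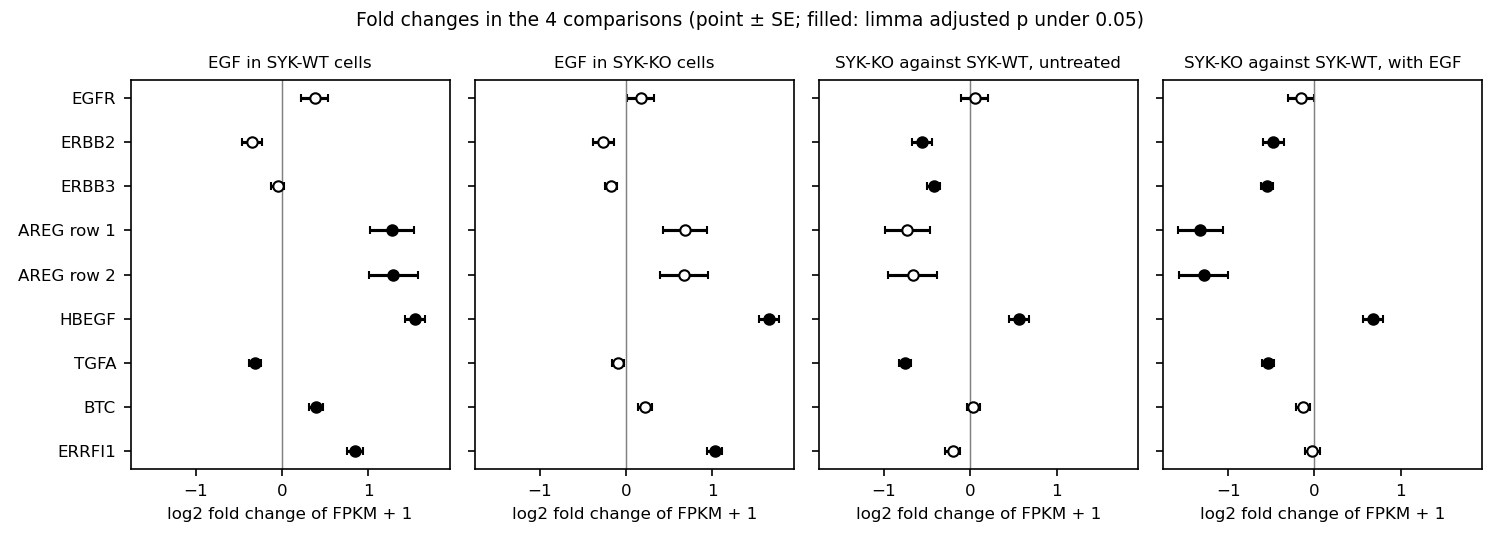
Log2 fold change of FPKM + 1 for the 9 tested loci in the 4 comparisons; points are limma estimates, bars are ± 1 SE, and filled points have an adjusted p under 0.05. HBEGF and ERRFI1 are filled in both EGF panels, and ERBB2, ERBB3, TGFA and HBEGF in both genotype panels.

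Whether the EGF response itself differed between genotypes was tested as a difference of the responses, SYK-KO minus SYK-WT. None of the 9 loci passed, with 1 of all 12112 loci called (0.00826%). For AREG row 1 the difference was -0.59 ± 0.368 (SE, 95% interval -1.44 to 0.26; limma adjusted p = 0.682). Of the 9 loci, none had an unadjusted p under 0.05. The smallest was that of TGFA at 0.0611, with a difference of 0.21 (-0.01 to 0.44).

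The AREG result depended on the SYK-WT pair. Without SYK-WT replicate 1 both AREG rows passed, with differences of -1.08 (limma adjusted p = 0.00908) and -1.15 (0.00675), while without SYK-WT replicate 2 they were -0.11 (0.78) and -0.09 (0.819). The fit without SYK-WT replicate 1 called 877 loci in all. For ERRFI1 the difference was 0.18 (-0.11 to 0.47) and for HBEGF 0.11 (-0.26 to 0.49). The HBEGF value turned to -0.20 with a pseudocount of 0.1, so no direction can be read from it.

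**Figure D5:**
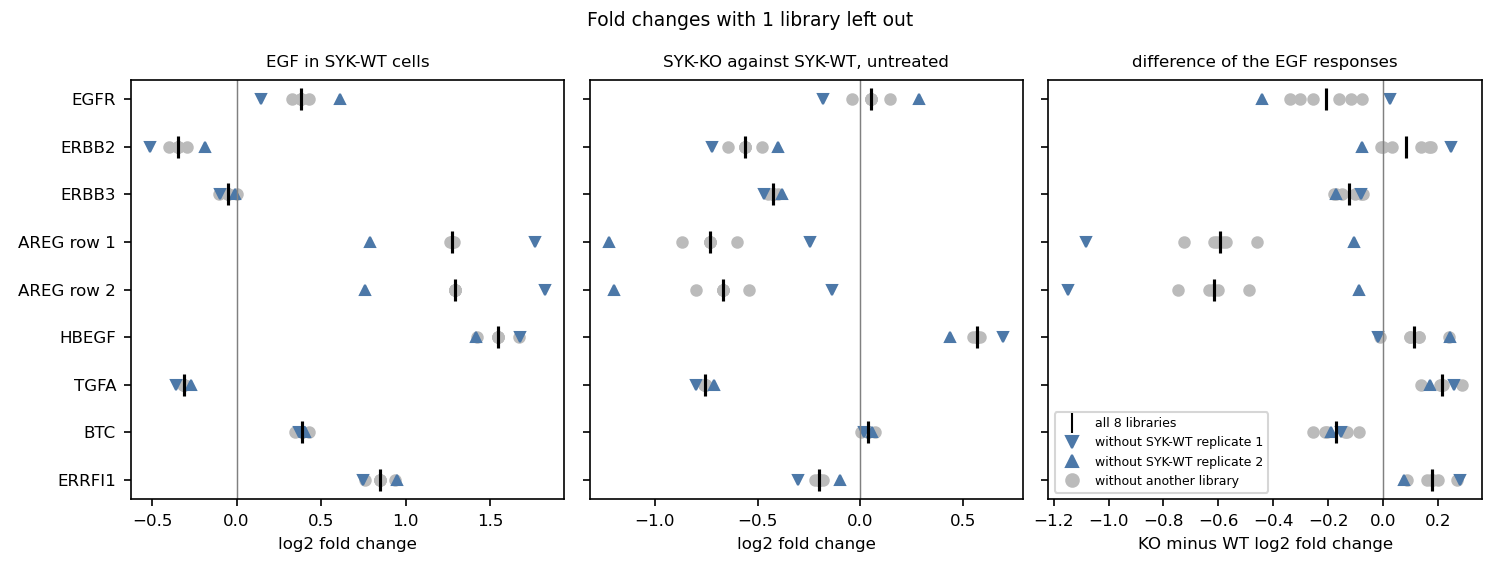
Log2 fold changes of the 9 tested loci with all 8 libraries (bars) and with each library left out in turn; triangles mark the fits without either SYK-WT library. For AREG row 1 these give 1.76 and 0.79 for EGF in SYK-WT cells and -1.08 and -0.11 for the difference of the responses.

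The authors' deposited table gives q-values for 3 of the comparisons. Of 27757 loci it has q under 0.05 for 1982 with EGF in SYK-WT cells, 2875 between untreated genotypes and 3182 between genotypes with EGF. In the authors' deposited table both AREG rows had q = 5.83e-04 in each comparison, the smallest q of any member. That holds also for untreated SYK-KO against SYK-WT, where the present fit did not pass. For EGF in SYK-WT cells the authors' deposited table lists HBEGF and ERRFI1 at q = 5.83e-04 each, EREG at 0.0276, BTC at 0.0601 and TGFA at 0.146. The receptors are at q = 0.0745 (EGFR), 0.129 (ERBB2) and 0.881 (ERBB3) in the authors' deposited table. For the genotype without EGF it lists TGFA at q = 5.83e-04, HBEGF at 0.00239, ERBB2 at 0.00665 and ERBB3 at 0.0276 in the authors' deposited table. There ERRFI1 is at q = 0.398, BTC at 0.919 and EGFR at 0.920 in the authors' deposited table. With EGF the authors' deposited table has q = 5.83e-04 for HBEGF, 0.00239 for ERBB3, 0.00665 for TGFA, 0.00822 for EREG and 0.0416 for ERBB2. EGFR, BTC and ERRFI1 have q = 0.564, 0.643 and 0.944 in the authors' deposited table.

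Genes around these receptors and ligands were counted in lists given by function. The lists were chosen with earlier results of these data known, so their counts and medians beside all loci are a description without a test. Of 6 other ERBB ligands and receptors (EGF, ERBB4 and NRG1 to NRG4), NRG1 alone was tested. NRG1, a ligand of ERBB3 and ERBB4, was at 6.25 and 5.88 FPKM in SYK-WT, 8.00 and 8.32 in SYK-KO, 4.77 and 4.77 in SYK-WT EGF, and 5.75 and 6.21 in SYK-KO EGF. It was thus highest in SYK-KO and lowest in SYK-WT EGF. NRG1 fell with EGF by 0.29 and 0.39 in SYK-WT and SYK-KO cells (limma adjusted p = 0.0224 and 0.0128) and was higher in SYK-KO by 0.37 and 0.27 without and with EGF (0.00525 and 0.0179), opposite in sign to ERBB3. Endogenous EGF transcript was at 0.455 to 0.790 FPKM.

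Ligand shedding was covered by 12 genes, the ADAM proteases, their rhomboid-like regulators and the inhibitor TIMP3, of which 10 were tested. ADAM8 reached 1 FPKM only in the SYK-WT libraries and ADAM19 only in the SYK-WT EGF libraries, so each passed the filter through the group where it is high and both are left out of the counts, a choice made after their values were seen. Of the other 8, 6 were lower and 0 higher in SYK-KO without EGF, where 20.2% of all loci were lower, and 7 were lower and 0 higher with EGF, where 22.5% were lower. Their medians were -0.42 and -0.32, against -0.01 and -0.02 over all loci. Because earlier results were known when the list was chosen, these values only describe it. ADAM10, a main sheddase of BTC and EGF, was at 85.7 and 88.0 FPKM in SYK-WT, 56.9 and 61.3 in SYK-KO, 61.0 and 61.4 in SYK-WT EGF, and 47.3 and 49.4 in SYK-KO EGF. It was lower in SYK-KO, at -0.55 without and -0.33 with EGF (limma adjusted p = 5.55e-04 and 0.00442) and fell with EGF by 0.50 and 0.28 in SYK-WT and SYK-KO cells (0.00151 and 0.0259).

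ADAM17, the main sheddase of AREG, TGFA and HBEGF, was also lower in SYK-KO, at -0.29 without EGF and -0.24 with EGF (limma adjusted p = 0.00858 and 0.0184); it was singled out after its values were seen. ADAM9 was lower, at -0.62 in both, and FRMD8, which stabilises the complex of ADAM17 with its rhomboid-like partners, was at -1.06 and -0.51. TIMP3, which inhibits ADAM17, was at 16.6 and 23.6 FPKM in SYK-WT, 10.9 and 12.0 in SYK-KO, 52.9 and 55.0 in SYK-WT EGF, and 15.2 and 16.0 in SYK-KO EGF. Its rise with EGF was 1.40 in SYK-WT cells (limma adjusted p = 5.94e-04) and 0.41 in SYK-KO cells, which did not pass, and SYK-KO minus SYK-WT was -0.74 and -1.73 (0.00517 and 1.29e-04). ADAM15 did not pass without EGF (0.16, limma adjusted p = 0.0851) and was lower in SYK-KO with EGF, at -0.26 (0.0173); it too was singled out after its values were seen. The difference of the EGF responses passed limma for 0 of the 8 loci counted above. For TIMP3 it was -0.99 ± 0.2 (limma adjusted p = 0.288). Among all 10 tested, ADAM8 and ADAM19 included, 5 had an unadjusted p under 0.05 for this difference. ADAM8 and ADAM19 passed the filter through the group where each is high, and the share of all loci under that value was not taken. The count therefore does not set the list apart. With EGF in wild-type cells 2 of the 8 rose and 1 fell, and in the knockout 0 rose and 1 fell. Over all loci 14.7% rose and 12.1% fell in wild-type cells, and 6.67% rose and 5.13% fell in the knockout.

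Of 18 adaptors and members of the RAS-ERK cascade, all tested, 4 rose and 0 fell with EGF in SYK-WT cells and 3 rose and 1 fell in SYK-KO cells, with 5 higher and 3 lower in SYK-KO both without and with EGF. Over all loci 26.7% and 11.8% were called for EGF and 40.5% and 43.6% for the genotype, so the counts do not set the list apart. GAB2, a docking protein, went from 1.11 and 1.03 FPKM in SYK-WT to 3.35 and 3.36 in SYK-KO, 2.34 and 2.61 in SYK-WT EGF, and 4.77 and 5.01 in SYK-KO EGF. It passed in all 4 comparisons, at 0.75 and 0.44 for EGF and 1.08 and 0.76 for the genotype. MAP2K1, an ERK kinase, rose with EGF by 0.50 and 0.35 in SYK-WT and SYK-KO cells. Between the adaptors that bind EGFR directly, SHC1 was higher in SYK-KO by 0.51 and 0.44 and GRB2 was lower, at -0.33 and -0.39.

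The 22 genes of receptor down-regulation (ubiquitin ligases, endocytic adaptors, phosphatases and LRIG proteins) were all tested. With EGF 3 rose and 3 fell in SYK-WT cells, and 1 rose and 1 fell in the knockout. The genotype comparison gave 1 higher and 5 lower without EGF, and 3 higher and 5 lower with EGF. Both totals are below the 40.5% and 43.6% called over all loci, and the EGF totals are near the 26.7% and 11.8%. CBLB, a ubiquitin ligase that acts on activated EGFR, was at 11.1 and 10.2 FPKM in SYK-WT, 7.55 and 7.41 in SYK-KO, 5.70 and 6.37 in SYK-WT EGF, and 4.15 and 4.44 in SYK-KO EGF. It passed in all 4 comparisons, at -0.73 and -0.68 for EGF and -0.46 and -0.41 for the genotype. SH3KBP1, an adaptor that links CBL proteins to endocytosis, went the other way with genotype, by 0.96 and 0.83. PTPN1, a phosphatase of EGFR, was lower in SYK-KO, at -0.45 and -0.41, and LRIG2 at -0.39 and -0.34.

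Among 12 transcripts commonly read as output of ERK signalling, 6 rose and 0 fell with EGF in SYK-WT cells and 7 rose and 0 fell in SYK-KO cells, where 14.7% and 6.67% of all loci rose and 12.1% and 5.13% fell. The medians were 0.21 and 0.27, against 0.01 and 0.00 over all loci. This list too was chosen with earlier results known, so these values only describe it. DUSP5, a nuclear ERK phosphatase, was at 64.1 and 62.2 FPKM in SYK-WT, 89.9 and 83.6 in SYK-KO, 153 and 165 in SYK-WT EGF, and 199.6 and 195 in SYK-KO EGF. It rose with EGF by 1.32 and 1.18 (limma adjusted p = 3.63e-05 and 1.50e-04) and was higher in SYK-KO by 0.45 and 0.31 (0.00163 and 0.00785).

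PHLDA1 rose with EGF by 1.21 and 1.02 and was higher in SYK-KO by 0.63 and 0.44. The cytoplasmic ERK phosphatase DUSP6 was at 20.7 and 20.6 FPKM in SYK-WT, 12.7 and 11.5 in SYK-KO, 22.1 and 22.8 in SYK-WT EGF, and 14.8 and 14.4 in SYK-KO EGF. DUSP6 was lower in SYK-KO, at -0.73 and -0.59, as was the feedback inhibitor SPRY4, at -0.47 and -0.30. The list thus split by genotype, with 3 higher and 4 lower without EGF and 3 higher and 3 lower with EGF, against 40.5% and 43.6% of all loci called. For the difference of the EGF responses, limma passed 0 genes in any of these lists, with an unadjusted p under 0.05 for 1 of the 12 here, 1 of the 18 adaptors and cascade members and 0 of the 22 genes of receptor down-regulation. The share of all loci under that value was not taken, so these counts do not set the lists apart.

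Likeness over the 8 libraries was measured as the Pearson correlation of log2(FPKM + 1) among 7792 loci with 1 symbol and a mean of at least 5 FPKM. HBEGF was closest to DLG1 (0.993), PNP (0.992) and SLC4A7 (0.989), and 65 loci exceeded 0.95. AREG row 1 was closest to UBE2E2 and SAMD8 (0.994 each) and PSMB2 (0.993), with 179 loci above 0.95. ERRFI1 was closest to SBNO2 (0.987), DENND3 and USP12 (0.984 each), with 49 above 0.95, and EGFR to ANXA11 (0.957), TSR3 (0.953) and NOTCH3 (0.949), with 2 above 0.95. Among the receptors and ligands themselves TGFA tracked ERBB3 (0.951) and ERBB2 (0.943). The points are 8 libraries in 4 groups, so these values describe shared group patterns.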

How the data were processed

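RNA-seq of 8 OVISE libraries was analysed as deposited. The FPKM per locus and library were made by the authors with TopHat, Cufflinks and Cuffdiff 2.2.1.3 on hg19, per the submitters' processing notes, and the q-values (adjusted p-values) are those of the authors' deposited table. Not given in the sources used here are parameters, library scaling and strand. Groups and replicate numbers came from the sample titles. Symbols were matched by accession for 27222 loci from a RefSeq table and 319 from GENCODE, and 216 had none. Gene coordinates are those of the table in hg19, 1-based, and promoter coordinates are GRCh38.p14.

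On the 12112 loci that reached 1 FPKM in 2 or more libraries, limma 3.58.1 (R 4.3.3) modelled log2(FPKM + 1) by group with a trended prior (4 residual and 3.87 prior degrees of freedom). Two-sided p-values were adjusted per comparison (Benjamini-Hochberg). The fit was tested on simulated data. Depth was estimated from the step between low FPKM values, with 1195 loci behind the absolute estimate. Tables and plots used python 3.11.15, pandas 2.3.3 and matplotlib 3.10.9. TATAAA and TGACGTC were added to the motif search after the windows were seen. Alternatives were another pseudocount, no filter, equalised medians, a fit of the compared groups alone, a replicate block, quality weights, the AREG rows summed, and each library left out.

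All 10 genes are described, SYK is the targeted gene, and each list names up to 4 genes with the smallest adjusted p over the 4 two-group comparisons, to which ADAM8, ADAM15, ADAM17 and ADAM19 were added after their values were seen. For likeness, the 3 highest correlations are named. The genes and lists were chosen with earlier results of these data known. The value of 1 marker is not reported here.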

Additional observations from a re-analysis of the deposited data

How the results depend on the processing

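Of 12112 loci, EGF in SYK-WT cells called 3238, but 1428 with only its own groups in the fit, 1877 with quality weights, and 1249 to 5084 with a library left out. EGF in SYK-KO cells called 1429, against 2980, 3024 and 316 to 2994. Among the 9 loci of the family it called 2, but 5 with only its own groups and 4 with quality weights, and 2 to 5 with a library left out. For EGF in SYK-WT cells that last range was 2 to 7 (6 with all libraries). SYK-KO against SYK-WT called 4902 without EGF (3079 with only its own groups; 2480 to 5915 with a library left out) and 5277 with EGF (2940 to 6820). The difference of the responses called 1 locus, 2 with no filter, with quality weights, or with no filter and a pseudocount of 0.1 (the last added after seeing the data), and 0 to 877 with a library left out, of which 0 to 2 were in the family. With the higher AREG row alone its share of the ligands was 61.3% (SYK-WT), 60.4% (SYK-KO), 81.7% (SYK-WT EGF) and 70.1% (SYK-KO EGF). The cause was not tested, except that a fit without a library has fewer samples and assumes the lone library varies like the other groups.

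Some values changed sign, none of them past the threshold. With a library left out, EGF in SYK-WT cells gave ERBB3 -0.11 to 0.00121, the untreated genotype difference of EGFR ran from -0.18 to 0.29, and that of ERRFI1 with EGF from -0.11 to 0.0673. For the difference of the responses these ranges were -0.44 to 0.0245 for EGFR, -0.0778 to 0.25 for ERBB2 and -0.0169 to 0.24 for HBEGF, which was -0.20 with a pseudocount of 0.1, filtered or not.

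The differences between replicates 1 and 2 correlated from -0.381 to 0.270 between groups. SYK-WT, SYK-KO and SYK-KO EGF correlated positively with each other (0.161 to 0.270), and SYK-WT EGF negatively with each of them (-0.381 to -0.161). Whether replicate numbers pair the libraries cannot be told from these values. With a replicate block, 8, 3, 5, 6 and 0 of the 9 loci were called in the order of comparisons above, and 3624, 1653, 5261, 5688 and 1 of all loci. Equalising medians changed no count of the family.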
